A study of Saccharomyces cerevisiae with 6 samples.

Results

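The genes described here are the 7 main hexose transporter genes of Saccharomyces cerevisiae, HXT1 to HXT7, the galactose transporter gene GAL2, which also carries glucose, and the genes of both glucose sensors, SNF3 and RGT2. They were chosen by name, and all 10 were found among the 7125 genes of the deposited gene table. Poly(A)-selected RNA was sequenced from 3 libraries of a wild-type strain and 3 of a kap114 knockout strain. Both strains have the S288C background and were grown in YPD, a rich medium whose sugar is glucose, with 1.5 M NaCl. The library names of both genotypes carry the term TAF1, which the labels do not explain. The knockout lacks Kap114, a karyopherin that imports histones and the TATA-binding protein into the nucleus. All 6 libraries come from salt medium, so the comparison is of genotypes in high salt and shows no response to salt.

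Yeast takes up hexoses by facilitated diffusion through Hxt proteins of the plasma membrane, which differ in their affinity for glucose. Low-affinity transporters serve cells in abundant glucose and high-affinity ones serve cells in scarce glucose. Snf3 and Rgt2 resemble transporters but act as receptors: when glucose binds, the casein kinases Yck1 and Yck2 and the ubiquitin ligase SCF-Grr1 lead to the breakdown of Mth1 and Std1. These corepressors otherwise hold the repressor Rgt1 on the HXT promoters, together with Cyc8 and Tup1. At high glucose the repressor Mig1 additionally shuts off the genes of the high-affinity transporters.

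KAP114 had 257, 336 and 312 counts in wild-type libraries 1 to 3 and 0 counts in each knockout library. Library totals ranged from 33638728 to 38540115 counts. The labels name no separate cultures, so replicates may be technical, and each p-value rests on the spread among these libraries alone. The S numbers in the library names run apart for the genotypes, so any order behind them cannot be told apart from genotype. Libraries are numbered here by sample title, and the names of the knockout libraries carry other replicate numbers than their titles. The share of counts on the ribosomal RNA precursor RDN37 was between 3.69% and 4.54% in wild-type libraries and between 9.05% and 12.3% in knockout libraries. With RDN37 left out of the fit, 6 of the 10 genes rose and 3 fell, as with it, and HXT5 had a log2 fold change of -1.86. The median log2 fold change of all genes was 0.012 with and without RDN37, so this check could change little. It does not touch the deposited TPM or the CPM, which were not recomputed without RDN37. Knockout library 1 lay nearest to the wild type for HXT1, HXT3, HXT5, HXT6 and SNF3. Without it the fitted log2 fold change was 1.97 for HXT1, 2.35 for HXT3, 1.43 for HXT6 and -1.47 for SNF3. For HXT5 and for the ratios between genes, values without it are given below.

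HXT6 and HXT7 lie close together on chromosome IV and can barely be told apart by sequence. Over 1713 coding bases in the R64 reference they differ at 3 positions, which is 99.8% identity, and the first 1631 bases are the same. Counted from the A of the start codon, with the HXT6 base first and the HXT7 base last, the differences are T1632C, G1666A and T1677C. They are shown because they are the only coding bases by which reads of the genes could be told apart. Capitals mark the differing bases in these 30-base stretches of the coding strand, which is the minus strand (HXT6 chrIV:1159674-1159703 and chrIV:1159635-1159664, HXT7 chrIV:1154282-1154311 and chrIV:1154243-1154272, build R64).
HXT6 first stretch: tgggttccaccatcTagaagaggtgccaac
HXT7 first stretch: tgggttccaccatcCagaagaggtgccaac
HXT6 second stretch: gaagaaatgGctcacgatgaTaagccattg
HXT7 second stretch: gaagaaatgActcacgatgaCaagccattg
Of all 100-base windows of either coding region, 5.08% occur once in the genome. The sources used here do not say how the authors placed reads that match both genes, so the sum of HXT6 and HXT7 is the value to read. The other genes are far better separated: 96.4% of the 100-base windows of HXT3 occur once, 98.8% of those of HXT1 and of HXT5, and 100% of those of HXT2, HXT4, GAL2, SNF3 and RGT2. The window length was a choice, not the read length of the libraries.

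The promoters of the low-affinity genes HXT1 and HXT3 are shown because both rose strongly and because their 1000 bases before the start codon are dense in the Rgt1 motif. The motif CGGANNA, searched on both strands, had 8 matches before HXT1 and 9 before HXT3. Of 5996 promoters of the same length, these included, 66.5% held at least 1 match, and the median was 1. The 2 promoters with at least 8 matches were those of HXT1 and HXT3 themselves, and the 1 with at least 9 was that of HXT3. Whether the number of matches goes with the rise was not tested. HXT5 is shown beside them because it fell and lies next to HXT1. The stress response element CCCCT, the site bound by Msn2 and Msn4, had 2 matches before HXT5, and 21% of promoters held at least as many. It had more before HXT6 and HXT7, which rose, with 5 and 4 matches. The Rgt1 motif had 4 matches before HXT5 too, and 3.49% of promoters held at least as many. Each window below is the 300-base stretch nearest the start codon with the most matches, read on the coding strand, which is the minus strand for all 3 genes; it starts 484, 538 and 472 bases before the start codon of HXT1, HXT3 and HXT5. Capitals mark the Rgt1 motif in HXT1 (chrVIII:292810-293109) and HXT3 (chrIV:1164899-1165198), and the stress response element in HXT5 (chrVIII:296620-296919), all in build R64. The HXT5 window also holds an Rgt1 match, at 297 to 291 bases before the start codon, which is left in lower case.
HXT1: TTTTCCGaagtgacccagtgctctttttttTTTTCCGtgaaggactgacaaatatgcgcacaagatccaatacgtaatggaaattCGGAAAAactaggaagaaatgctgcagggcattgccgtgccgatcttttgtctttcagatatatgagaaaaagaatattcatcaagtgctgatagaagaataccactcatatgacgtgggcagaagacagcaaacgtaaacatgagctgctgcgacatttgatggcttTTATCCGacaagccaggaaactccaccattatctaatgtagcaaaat
HXT3: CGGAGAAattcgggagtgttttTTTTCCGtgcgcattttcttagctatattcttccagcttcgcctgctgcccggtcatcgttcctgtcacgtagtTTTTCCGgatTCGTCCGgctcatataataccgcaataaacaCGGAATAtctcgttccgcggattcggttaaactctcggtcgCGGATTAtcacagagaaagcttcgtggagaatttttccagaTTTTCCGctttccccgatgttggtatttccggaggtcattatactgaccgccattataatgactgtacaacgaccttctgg
HXT5: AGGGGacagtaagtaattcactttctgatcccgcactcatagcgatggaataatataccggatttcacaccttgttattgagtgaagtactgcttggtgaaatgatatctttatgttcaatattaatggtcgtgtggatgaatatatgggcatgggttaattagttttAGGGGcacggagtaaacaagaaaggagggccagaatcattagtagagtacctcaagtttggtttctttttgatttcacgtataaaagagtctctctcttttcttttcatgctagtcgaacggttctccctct
A match is a run of letters and not a measured binding site.

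The low-affinity transporter genes rose most. Read numbers per gene length are given as the deposited TPM (transcript abundance scaled to gene length and library), and changes come from edgeR's quasi-likelihood test on the counts. HXT1 (YHR094C, chromosome VIII, 290913 to 292625, minus strand), whose transporter serves growth in abundant glucose, stood at 122, 144 and 142 TPM in the wild-type libraries and at 324, 565 and 442 TPM in the knockout libraries. Every knockout library lay above every wild-type library, and knockout library 2 was the highest. The log2 fold change of HXT1 was 1.78 ± 0.23 (SE), a 3.44-fold rise with an adjusted p of 0.00114. HXT3 (YDR345C, chromosome IV, 1162957 to 1164660, minus strand), a low-affinity transporter gene induced by glucose over a wide range, stood at 151, 220 and 190 TPM in the wild type. In the knockout it stood at 554, 888 and 903 TPM, again with no overlap. HXT3 rose 4.41-fold (2.14 ± 0.26 on the log2 scale, SE; adjusted p 0.00114). The counts behind these values ran from 7714 to 15002 in wild-type libraries and from 19860 to 60121 in knockout libraries.

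The 2 transporter genes of intermediate affinity moved in opposite directions. HXT5 (YHR096C, chromosome VIII, 294669 to 296447, minus strand), known for its expression in slowly growing, starved and stressed cells, was the most abundant of the 10 genes in the wild type. Its level was 4156, 3591 and 3786 TPM in the wild-type libraries and 1908, 413 and 725 TPM in the knockout libraries. All knockout libraries lay below the wild type, and they spread far more: the coefficient of variation was 77.7% against 7.47%. HXT5 fell by 1.86 ± 0.54 (SE) on the log2 scale, which is 3.62-fold, with an adjusted p of 0.0188. Without knockout library 1 the fitted log2 fold change was -2.68 (adjusted p 1.37e-05), and without knockout library 2 it was -1.49. The call of HXT5 ended without wild-type library 1 (adjusted p 0.0577) and without knockout library 3 (adjusted p 0.0730). HXT4 (YHR092C, chromosome VIII, 287081 to 288811, minus strand) was a minor transcript at 35.3, 44.0 and 38.4 TPM in the wild type. It stood at 81.1, 62.1 and 102 TPM in the knockout, where library 2 was the lowest and not library 1. HXT4 rose 2.19-fold, by 1.13 ± 0.19 (log2, SE), with an adjusted p of 0.00220.

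The high-affinity transporter genes rose less than the low-affinity ones. HXT2 (YMR011W, chromosome XIII, 288079 to 289704, plus strand) stood at 787, 1028 and 865 TPM in the wild type and at 1481, 1295 and 1502 TPM in the knockout. The groups did not overlap, and HXT2 rose 1.68-fold, by 0.75 ± 0.21 (log2, SE), with an adjusted p of 0.0149. The sum of HXT6 and HXT7 stood at 1509, 1932 and 1839 TPM in the wild type and at 2759, 2974 and 3156 TPM in the knockout. The summed counts rose 1.77-fold, by 0.83 ± 0.22 (log2, SE), with an adjusted p of 0.0138. As the authors divided the reads, HXT6 (YDR343C, chromosome IV, 1159608 to 1161320, minus strand) rose 2.40-fold from a mean of 384 TPM, and HXT7 (YDR342C, 1154216 to 1155928) rose 1.598-fold from a mean of 1376 TPM. The TPM of HXT7 was 3.92, 3.28 and 3.67 times that of HXT6 in the wild type and 3.12, 2.23 and 2.07 times in the knockout. This ratio rests on the few distinguishing bases and on a placement rule that is unknown. The calls of the summed genes and of HXT2 ended without wild-type library 1, wild-type library 3 or knockout library 3, at adjusted p of 0.0560 to 0.0721 and of 0.0691 to 0.0765. The call of HXT7 ended with library totals only as scaling (adjusted p 0.0543), and without any 1 wild-type library or knockout library 3 (adjusted p 0.0650 to 0.106).

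GAL2 (YLR081W, chromosome XII, 290212 to 291936, plus strand), whose transporter is made mainly on galactose, was near silent, with 212 to 271 counts per wild-type library and 98 to 135 per knockout library. Its level was 3.41, 3.92 and 3.42 TPM in the wild type and 1.82, 1.602 and 2.004 TPM in the knockout, without overlap. GAL2 fell by 0.91 ± 0.16 (log2, SE), which is 1.88-fold, with an adjusted p of 0.00285.

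The genes of the glucose sensors differed. SNF3 (YDL194W, chromosome IV, 111580 to 114234, plus strand), for the sensor of low glucose, stood at 73.6, 64.4 and 71.1 TPM in the wild type and at 40.3, 22.2 and 25.3 TPM in the knockout. All knockout libraries lay below the wild type, and library 1 lay nearest to it. SNF3 fell 2.27-fold, by 1.19 ± 0.22 (log2, SE), with an adjusted p of 0.00359. RGT2 (YDL138W, chromosome IV, 213351 to 215642, plus strand), for the sensor of high glucose, stood at 18.6, 18.8 and 19.9 TPM in the wild type and at 19.4, 18.3 and 17.03 TPM in the knockout. The groups overlapped, and the log2 fold change of RGT2 was 0.0025 ± 0.090 (SE) with a 95% interval of -0.21 to 0.21 and an adjusted p of 0.981; its sign turned with the scaling. The SNF3 level was 3.95, 3.43 and 3.57 times that of RGT2 in the wild type and 2.08, 1.21 and 1.49 times in the knockout. The log2 ratio differed by -1.23 between genotypes without overlap (exact two-sided permutation p = 0.1, the smallest that 3 libraries against 3 allow). Without knockout library 1 it differed by -1.44.

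**Figure D1:**
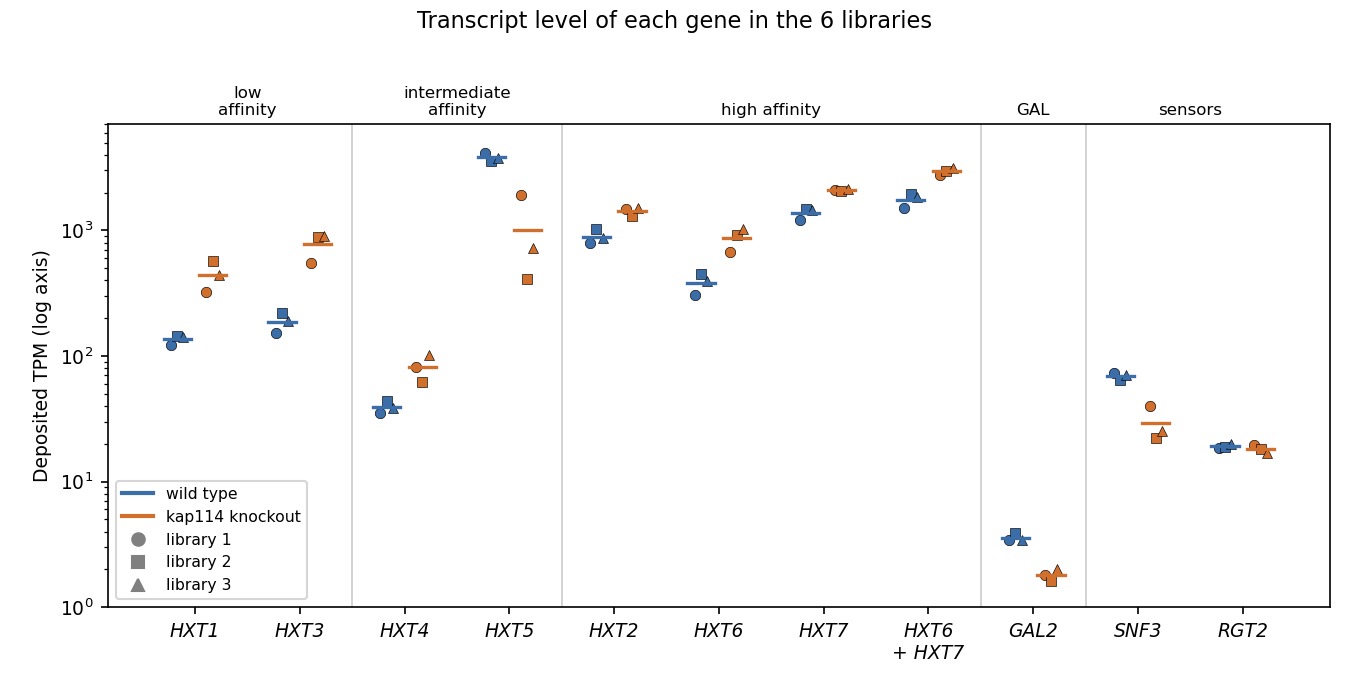
Deposited TPM on a log axis for each gene in the 3 wild-type (blue) and 3 kap114 knockout (orange) libraries; symbols mark the library number and lines the group means. HXT1, HXT2, HXT3, HXT4, HXT6 and HXT7 lie higher in every knockout library, HXT5, GAL2 and SNF3 lie lower, and RGT2 overlaps at 17.03 to 19.9 TPM.

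Of the 10 genes, 6 rose, 3 fell and RGT2 did not pass; leaving out 1 library at a time left 4 to 6 that rose and 2 or 3 that fell, with 4 rising without wild-type library 1, wild-type library 3 or knockout library 3, and 2 falling without wild-type library 1 or knockout library 3. Over all 6080 tested genes 64.3% passed in either direction, 34.3% higher and 30.0% lower, so a call alone sets these genes little apart from the rest. The median log2 fold change was 0.71 over the 10 genes and 0.01 over all tested genes. The groups did not overlap in TPM for 9 of the 10 genes and for 74.3% of all tested genes. The authors' deposited short table of 2212 genes lists 7 of the 10 and leaves out HXT7, GAL2 and RGT2. In the authors' deposited table the log2 fold change was 1.78 for HXT1, 2.14 for HXT3 and -1.86 for HXT5, the same as fitted here to 2 decimals.

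**Figure D2:**
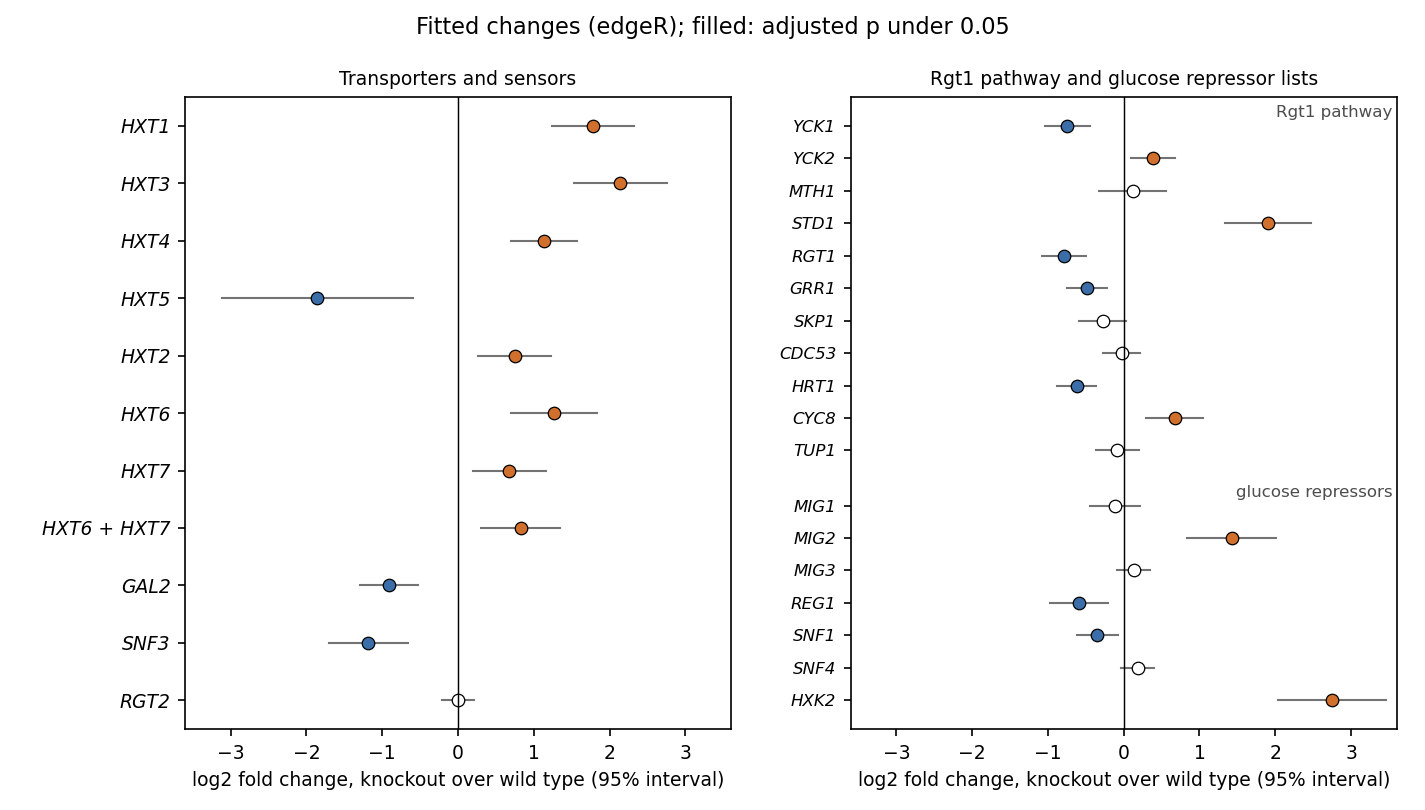
Fitted log2 fold changes (edgeR, knockout over wild type) with 95% intervals for the transporter and sensor genes (left) and for the Rgt1 pathway and glucose repression lists (right). Filled points have an adjusted p under 0.05. HXT3 at 2.14 and HXT5 at -1.86 mark the ends of the left panel, and HXK2 at 2.75 and STD1 at 1.91 the right side of the other.

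The make-up of the transporter transcripts shifted, and whether the genotypes overlapped in their sum depended on the unit. HXT1 to HXT7 together held 6760, 6958 and 6860 TPM in the wild type and 7108, 6197 and 6830 TPM in the knockout. The knockout range enclosed the wild-type range, and the log2 difference of the means was -0.03 (exact two-sided permutation p = 0.8). In CPM, counts scaled to the library total and not to gene length, the sum was 12539, 12763 and 12737 in wild-type libraries and 12138, 10758 and 11766 in knockout libraries. Every knockout library was then lower, with a log2 difference of -0.14 (exact two-sided permutation p = 0.1, the smallest possible). With the same scaling, to library totals only, the median log2 fold change over all 6080 tested genes was -0.13, so this difference is near that of all genes. HXT5 alone made up 61.5%, 51.6% and 55.2% of this sum in the wild type and 26.8%, 6.66% and 10.6% in the knockout. The low-affinity pair HXT1 and HXT3 went from 4.70% ± 0.608 to 18.5% ± 5.64 of the sum, and HXT2, HXT6 and HXT7 from 38.6% ± 4.34 to 65.6% ± 5.14 (SD, n = 3 each). Bulk RNA gives shares of a pool, so fewer cells with a transcript and less of it per cell cannot be told apart.

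**Figure D3:**
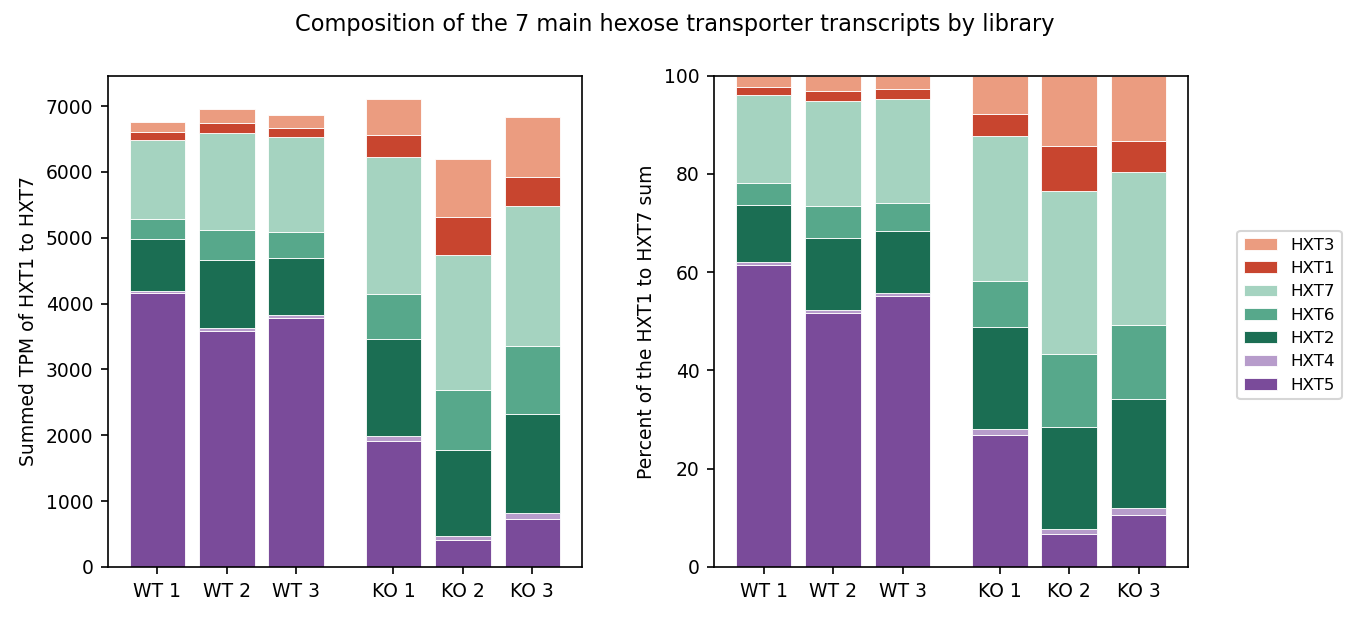
Stacked TPM of HXT1 to HXT7 in each library (left) and as percent of their sum (right), with WT for wild type and KO for kap114 knockout. The left bars reach 6197 to 7108 TPM and overlap between genotypes in this unit, though not in CPM, while HXT5 shrinks from 51.6% or more of the wild-type bars to 26.8% or less of the knockout bars.

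Set against each other within a library, low-affinity transcripts gained on high-affinity ones. The TPM of HXT1 and HXT3 was 0.119, 0.123 and 0.123 times that of HXT2, HXT6 and HXT7 in the wild type. In the knockout the ratio was 0.207, 0.340 and 0.289. The log2 ratio differed by 1.17, a factor of 2.25, with no overlap (exact two-sided permutation p = 0.1, the smallest possible), and library 1 had the smallest knockout value. The factor was 4.48 with HXT4 and HXT5 counted among the high-affinity genes and 2.14 with HXT4 counted among the low-affinity ones. With HXT4 and HXT5 in neither class, and without knockout library 1, the log2 ratio differed by 1.37. The 3 measures tested in this way form 1 family, in which no p could pass 0.05; the Benjamini-Hochberg adjusted p was 0.15 for each of the ratios and 0.8 for the sum.

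The order of the levels changed as well. In the wild type it ran HXT5, HXT7, HXT2, HXT6, HXT3, HXT1, SNF3, HXT4, RGT2 and GAL2, and no gene overlapped the next. HXT5 ranked at place 26 of all genes by mean TPM, HXT7 at 99 and HXT2 at 163. In the knockout HXT7 came first at place 66 of all genes, and HXT5 ranked at place 184. There the libraries of HXT2 and HXT5, of HXT5 and HXT6, of HXT6 and HXT3, and of HXT3 and HXT1 overlapped, so the order among these genes is not set. SNF3 changed places with HXT4, and the sensor transcripts stayed in the lower part of the order of these 10 genes in both genotypes. Among all genes SNF3 ranked at place 2114 in the wild type and 3534 in the knockout.

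Neighbouring transporter genes did not all move the same way. On chromosome VIII, HXT4, HXT1 and HXT5 follow each other on the minus strand with 2101 bases between HXT4 and HXT1 and 2043 bases between HXT1 and HXT5, and HXT1 rose while HXT5 fell. The small features AHT1 and YHR095W, with 54 counts or fewer in every library, lie between them on the other strand. The TPM ratio of HXT1 to HXT5 was 0.0293, 0.0401 and 0.0375 in the wild type and 0.170, 1.37 and 0.609 in the knockout. YHR097C, on the far side of HXT5, fell by 0.70 ± 0.20 (log2, SE; adjusted p 0.0161), and SFB3 beyond it rose by 0.63 ± 0.16 (adjusted p 0.0127). At the other end, MSR1 beside HXT4 did not pass, at -0.27 ± 0.11 (log2, SE; adjusted p 0.0561), and YNG2 beyond it fell by 1.10 ± 0.22 (adjusted p 0.00499). On chromosome IV, HXT7, HXT6 and HXT3 also share the minus strand, with 3679 and 1636 bases between them, and all 3 rose. YDR344C, a small feature between HXT6 and HXT3 with 17 to 131 counts, and YDR341C beyond HXT7 rose as well (adjusted p 0.00624 and 0.00114), while SVF1 beside HXT3 did not pass, at 0.29 ± 0.12 (log2, SE; adjusted p 0.0583).

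**Figure D4:**
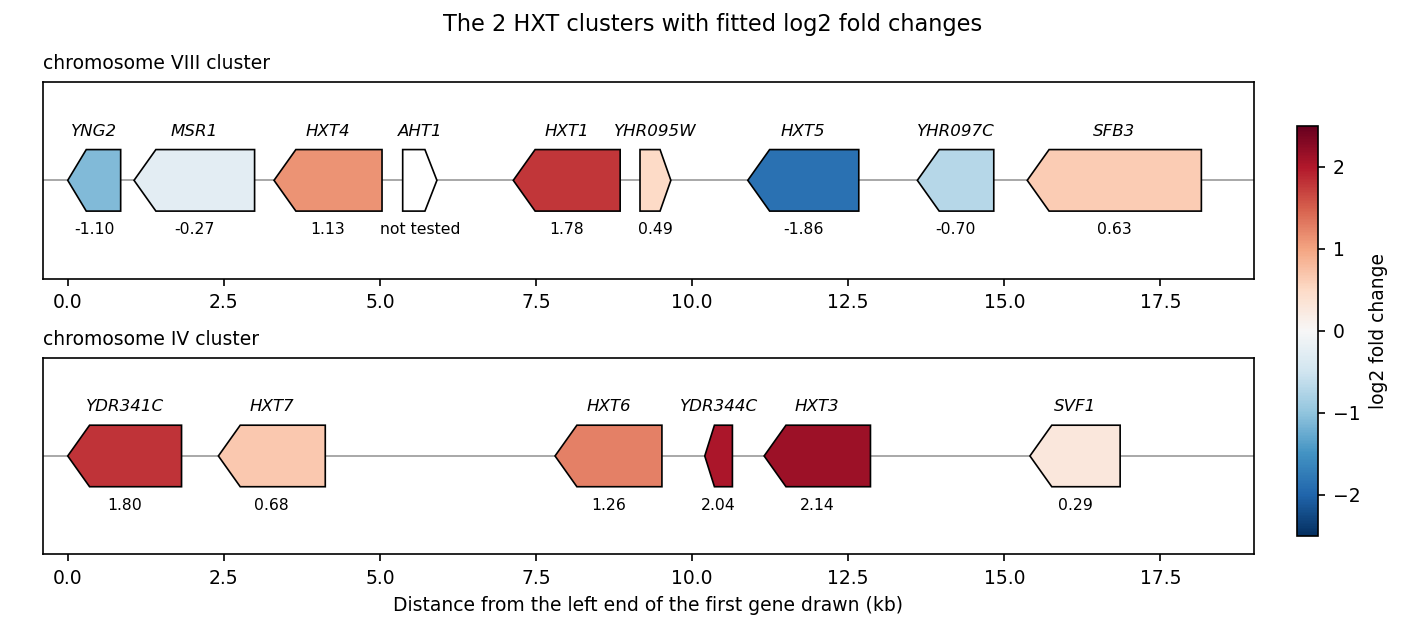
Gene maps of the HXT clusters on chromosomes VIII and IV to scale in kb; arrows give the strand, and colours and printed values the fitted log2 fold change. The neighbours HXT1 (1.78) and HXT5 (-1.86) have opposite colours, while HXT7 (0.68), HXT6 (1.26) and HXT3 (2.14) share one.

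The motif counts before all 10 genes are given as a description, with no test between classes. The Rgt1 motif had 8 and 9 matches before HXT1 and HXT3, 4 before HXT5, 3 each before HXT2, HXT4, HXT6 and GAL2, 2 before HXT7, and 0 before SNF3 and RGT2. Mig1 motifs (CCCCGC and CCCCGG as well as CCCCAC and CCCCAG, on either strand) had 4 matches before HXT2 and before HXT4, a number that 0.834% of promoters reach. They had 3 before HXT6 (2.89% of promoters), 2 each before HXT1, HXT3, HXT7 and SNF3, 1 before HXT5, and 0 before GAL2 and RGT2. Of all promoters 41.8% held a Mig1 motif and 55% a stress response element. HXT6 had 5 stress response elements and HXT7 4, numbers that 0.634% and 2.23% of promoters reach. GAL2 had 3, HXT5 had 2, HXT1, HXT3, HXT4 and RGT2 had 1 each, and HXT2 and SNF3 had 0. The TATA motif TATAAA was found before all 10 genes and in 77.2% of promoters. Matches of different motifs could overlap, and the searched stretch can hold neighbouring features, as it does YHR095W before HXT1.

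**Figure D5:**
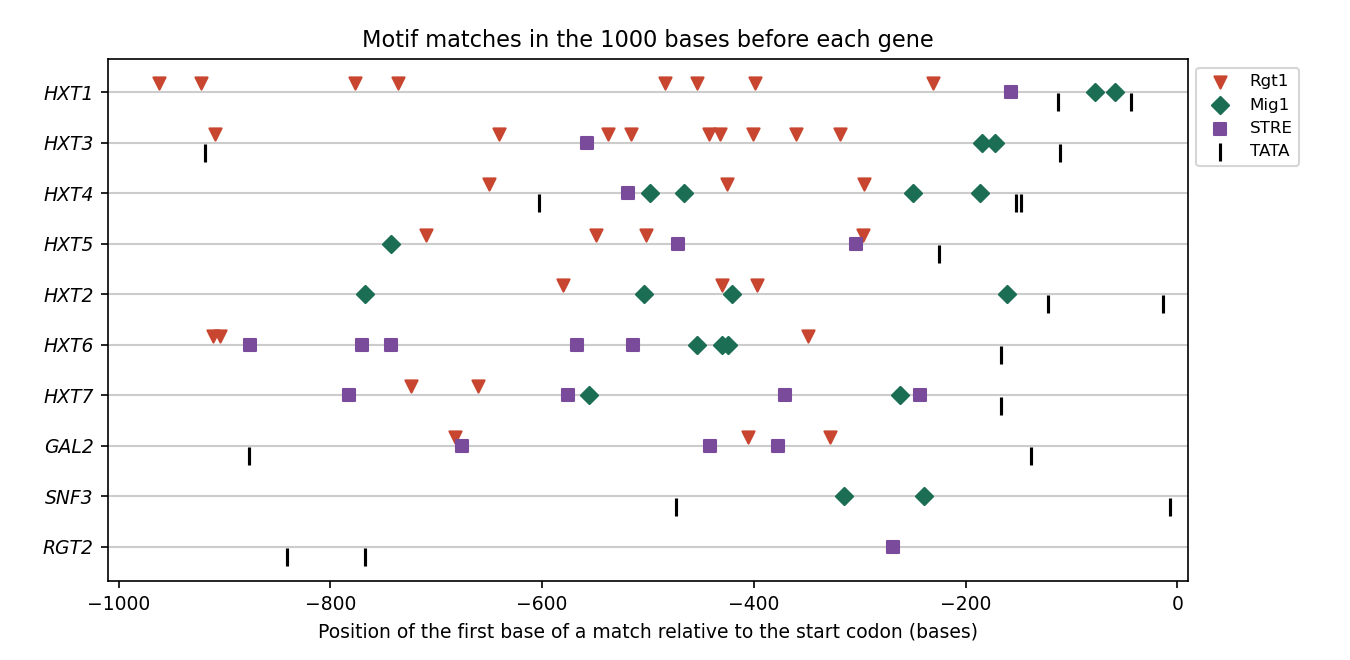
Matches of the Rgt1, Mig1, stress response element (STRE) and TATA motifs by distance from the start codon in the 1000 bases before each gene. HXT1 and HXT3 carry 8 and 9 Rgt1 matches, and the sensor genes SNF3 and RGT2 carry 0.

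The genes between the sensors and the HXT promoters did not move as one. Of 11 genes of the Rgt1 pathway, 3 rose, 4 fell and 4 did not pass, with a median log2 fold change of -0.09. The share called is near the 64.3% called over all tested genes. STD1, for the Rgt1 corepressor, stood at 8.62, 14.1 and 14.01 TPM in the wild type and at 32.0, 51.6 and 47.1 TPM in the knockout, and rose 3.76-fold (1.91 ± 0.24, log2, SE; adjusted p 0.00114). Its paralog MTH1 was the more abundant one, with wild-type libraries between 338 and 380 TPM and knockout libraries between 292 and 423 TPM, and had a log2 fold change of 0.12 ± 0.19. RGT1, for the repressor itself, fell 1.73-fold; its wild-type libraries lay between 53.4 and 60.1 TPM and its knockout libraries between 28.7 and 34.9 TPM. Of the casein kinase genes, YCK1 fell 1.68-fold, while YCK2 rose 1.31-fold, a call that was lost when any 1 library but knockout library 1 was left out (adjusted p 0.0535 to 0.0939) and with library totals only (0.107).

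Among the genes of SCF-Grr1, GRR1 for the F-box protein fell 1.40-fold and HRT1 for the RING subunit fell 1.54-fold. The adaptor gene SKP1 and the scaffold gene CDC53 did not pass, at log2 fold changes of -0.28 ± 0.13 and -0.03 ± 0.10 (SE), although SKP1 passed with DESeq2 (adjusted p 0.0128) and with library totals only (0.0226). CYC8, for the general corepressor, rose 1.59-fold, and its partner TUP1 had a log2 fold change of -0.09 ± 0.12 (SE).

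Of 7 genes of glucose repression, 2 rose and 2 fell, against 34.3% and 30.0% of all tested genes. HXK2, for the hexokinase that also takes part in glucose repression, stood at 69.9, 98.7 and 87.7 TPM in the wild type and at 331, 677 and 628 TPM in the knockout, and rose 6.73-fold (adjusted p 0.00114). MIG2, for a repressor related to Mig1, rose 2.68-fold, while MIG1 had a log2 fold change of -0.12 ± 0.14 (SE). REG1 fell 1.51-fold and SNF1 fell 1.27-fold. The median of the list was 0.13. Without wild-type library 1 or without knockout library 3 the number of called genes on this list was 2 in place of 4.

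Other transporter genes were scarce. Of 9 further HXT genes 8 were tested, 3 fell and 0 rose, against 30.0% and 34.3% of all tested genes; the highest mean in either genotype was 22.3 TPM, for HXT13. HXT13 fell 1.97-fold, from 20.01, 20.3 and 26.7 TPM to 9.39, 11.4 and 11.5 TPM, and HXT11 fell 1.66-fold (adjusted p 0.0193), a call that was lost on leaving out any of 4 libraries, which were wild-type 1 and 3 and knockout 2 and 3 (0.0504 to 0.0713). Of the 100-base windows of HXT11, 54.6% occur once in the genome, and of its 50-base windows 32.9%. Its division from other HXT genes is therefore uncertain too. Without wild-type library 3 or knockout library 3, 1 gene of this list was called. HXT15, with between 177 and 1042 counts, fell 2.71-fold (adjusted p 0.0201). Its call was lost without wild-type library 2, wild-type library 3 or knockout library 3 (0.0534 to 0.0654). HXT16 had 0 counts in all libraries. Of the 100-base windows of either gene 12.5% occur once in the genome, so the division between HXT15 and HXT16 is uncertain. Of 6 genes of the GAL regulon 4 fell and 0 rose, with a median of -0.46, against 30.0% and 34.3% of all tested genes. In either direction 64.3% of all tested genes passed. GAL4, for the activator, fell 2.16-fold and GAL3, for the galactose sensor, 1.42-fold. GAL80, for the repressor of Gal4, fell 1.33-fold, but its call was lost when any 1 library except knockout library 1 was left out (adjusted p 0.0746 to 0.127).

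In a chosen list of 10 genes for the ubiquitin-dependent turnover of plasma membrane transporters, all passed, 7 of them lower and 3 higher, with a median log2 fold change of -0.61. Over all tested genes 30.0% fell and 34.3% rose. LDB19, for an arrestin-like adaptor of the ubiquitin ligase Rsp5, fell 1.91-fold from 95.9 to 103 TPM down to 40.5 to 60.2 TPM, and DOA4, for a deubiquitinating enzyme, fell 1.63-fold. The 3 that rose were BUL2 (1.46-fold), ROD1 (1.40-fold) and END3 (1.39-fold). Without 1 library at a time 7 to 10 of the 10 passed.

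By Pearson correlation of log2 CPM over the 6 libraries, the genes most like HXT1 were STT4 and THR4 and those most like HXT3 were BUB3 and SRP72, each with r of at least 0.9994. For HXT5 they were ALT2 and HEF3 and for SNF3 PRB1 and GID8, with r of at least 0.9997. Such values were common: 509 of 5188 genes reached 0.99 with HXT1, 577 with HXT3, 422 with HXT5 and 451 with SNF3. HXT6 reached it with 150 genes, HXT7 with 33, HXT2 with 11, GAL2 with 4, HXT4 with 3 and RGT2 with 0, whose nearest was HSL7 at r = 0.97. These correlations describe 6 libraries in 2 groups and share their depth and scaling. Among the 6 genes that rose, r ran from 0.86 between HXT1 and HXT4 to 0.99 between HXT3 and HXT6. Among the 3 that fell, it ran from 0.87 between HXT5 and GAL2 to 0.99 between HXT5 and SNF3.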

How the data were processed

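RNA of 6 Saccharomyces cerevisiae libraries was measured, 3 wild type and 3 kap114 knockout, grouped by sample title. The authors deposited whole-number read counts for each gene in each library, without normalization, and TPM values beside them, per the file headers. The authors' deposited short table gives a log2 fold change per gene, per the file headers. Build R64 and FastQC are named in the submitters' processing notes. Which aligner, counter and test the authors ran is not stated in what was used here.

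The 10 genes and the gene lists were chosen with earlier results of these data known. All 10 have the same position in the gene table as in the RefSeq annotation of R64, from which sequences were read; 6145 of 7125 identifiers matched it. Genes passing filterByExpr (minimum count 10, minimum total 15), 6080 in number, were tested with edgeR 4.0.16 in R 4.3.3 (quasi-likelihood, robust, TMM factors from 0.947 to 1.07), with Benjamini-Hochberg adjustment over all of them and a threshold of 0.05. The test was also run on counts simulated from its fit to the real data, in which far fewer genes changed than were called here. HXT6 and HXT7 were also tested as 1 summed row in the same fit. SEs come from the F statistic. TPM values carry no TMM factor, so folds of TPM and fitted folds differ slightly. Ratios and sums of TPM were compared with exact permutation tests in scipy 1.17.1. All genes of the Rgt1 pathway list and the 2 with the smallest p of every other list are named. MIG1, REG1, SNF1, GAL80, BUL2, ROD1, END3, HXT8, HXT15 and HXT16 were picked once their values were known. The alternatives changed the scaling (RLE, upper quartile, library totals) or the tool, with DESeq2 1.42.0 or limma 3.58.1 on log2 TPM with pseudocounts of 1 and 0.1, no filter, at least 10 CPM in 3 libraries, RDN37 left out, the replicate number as a block, and each library left out in turn. For the ratios and the sum they also used CPM in place of TPM and placed HXT4 and HXT5 in other classes.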

Additional observations from a re-analysis of the deposited data

How the results depend on the processing

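HXT1, HXT3, HXT4, HXT6 and SNF3 kept their direction and their call under all 16 alternatives, and GAL2 under 15. At 10 CPM in 3 libraries GAL2 was not kept and gave no value. The result for HXT6 alone rests on an unknown division of reads with HXT7. HXT6 plus HXT7 kept its call under 13 of 16 alternatives, and HXT7 alone under 11. RGT2 passed under none of its 16 alternatives, and its log2 fold change was below 0 with RLE scaling (-0.024), library totals only (-0.14), DESeq2 (-0.026), limma on TPM with a pseudocount of 1 (-0.066) or 0.1 (-0.070), and without wild-type library 2, knockout library 1 or knockout library 2; leaving out 1 library at a time gave -0.033 to 0.049. Library totals only moved the median of all genes to -0.13. Leaving out 1 library at a time gave log2 fold changes of 0.74 to 0.89 for HXT6 plus HXT7, 3 of them no longer passing. The difference of the summed transporters ranged from -0.076 to 0.023 on the log2 scale and turned sign without knockout library 2; with CPM in place of TPM it was -0.14, and the groups no longer overlapped (exact permutation p = 0.1 against 0.8). In the same runs the called genes numbered 1 to 3 for the other HXT genes and 2 to 4 for glucose repression. The title replicate numbers were not taken as a pairing, as the names of the knockout libraries carry other numbers. The correlations of deviations from the group means of same-numbered libraries were 0.32, 0.18 and -0.07. Those of unlike-numbered libraries ran from -0.30 to 0.26. With the title numbers as a block, 6 genes rose and 3 fell, as without it, and HXT6 plus HXT7 had a log2 fold change of 0.83. Counts were low for GAL2, at 98 to 271, and for HXT8, at 4 to 31.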
